A study of Rattus norvegicus with 9 samples.

Results

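Hippocampal principal cells are the glutamatergic projection neurons of the hippocampus, namely the pyramidal neurons of fields CA1 to CA3 and the granule cells of the dentate gyrus. Identity genes are genes whose products specify or mark these neurons, and 8 of them were followed here across the groups of the study: Neurod1, Neurod2, Neurod6, Prox1, Wfs1, Bcl11b, Zbtb20 and Fibcd1. They were taken from the array annotation by symbol, each had exactly 1 probe set (8 of 30429 probe sets, and 8 of 18166 genes with a symbol of their own), and all 8 lay above the log2 level of 6.6 that the study used as its lower limit. The 3 groups held male Sprague-Dawley rats of 8 weeks, with 3 arrays each and 1 rat per array. The OXT-treated VPA group had been exposed to valproic acid (VPA) before birth, through a single oral dose of 600 mg/kg to the dam in mid-gestation, and then received oxytocin (OXT) into the nose at 12 μg/kg per day from postnatal day 21 to 55. The vehicle-treated VPA group had the same prenatal VPA and intranasal vehicle, and the control group came from dams given water in place of VPA and received intranasal vehicle. RNA of the dorsal hippocampus was taken on postnatal day 56 and hybridized to Rat Gene 2.0 ST arrays, and values are the log2 expression deposited by the authors. The control rats came from 2 dams and the VPA rats from 3 dams, the litter of each array is not given in the sources used here, and so litter and prenatal exposure cannot be told apart.

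The members play different parts in these neurons. Neurod1, Neurod2 and Neurod6 encode basic helix-loop-helix transcription factors, which pair with E proteins and bind E-boxes. In the mouse, Neurod1 acts in the formation of granule cells, and Neurod2 and Neurod6 act in differentiating and mature excitatory neurons of the forebrain. Prox1 encodes a homeodomain factor that sets and maintains granule cell identity, Bcl11b (also called Ctip2) a zinc finger factor of CA1 pyramidal and granule cells, and Zbtb20 a zinc finger factor required for the CA1 field. Wfs1 encodes wolframin, a protein of the endoplasmic reticulum, and Fibcd1 a membrane receptor with a fibrinogen domain, and both are used as markers of dorsal CA1 pyramidal neurons.

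All 9 arrays had medians between 5.75 and 5.82, and between 10955 and 11189 probe sets over the level of 6.6. Arrays of 1 group correlated at 0.983 or more. With all probe sets in the fit, none passed limma's test of a pair of groups at a Benjamini-Hochberg adjusted p under 0.05, while between 1419 and 2732 passed at an unadjusted p under 0.05. For fits and shares, a probe set counted as over the level where the mean of any group exceeded 6.6. This filter used the group means, so it was not blind to the groups compared. With only the 11473 probe sets over the level in the fit, 163 passed at an adjusted p under 0.05 for OXT-treated VPA against control. In that fit 140 passed for vehicle-treated VPA against control, and 0 between the VPA groups. Below, "rose" and "fell" refer to an unadjusted p under 0.05 in limma's test of that pair of groups with all probe sets, which holds where the 95% interval of the difference leaves out 0, and the adjusted p is given beside it. The study set the same threshold on a test over all 3 groups, given for the members further on. An exact permutation test of 3 arrays against 3 cannot go below a p of 0.1. Marker lists of neighboring tissue moved with the groups. The mean log2 of 15 thalamus markers was 8.16, 7.93 and 6.69 in the OXT-treated VPA arrays and 7.96, 7.57 and 6.6 in the vehicle-treated VPA arrays, against 6.85, 6.53 and 6.76 in the controls. It was therefore high in the first and second array of each VPA group, and at the control level in the third. For 10 ventral hippocampus markers this mean was 7.54 to 7.71 in OXT-treated VPA rats and 7.41 to 7.62 in vehicle-treated VPA rats, above the 6.84 to 7.07 of the controls. For 14 choroid plexus markers it was 6.0 to 8.84 in OXT-treated VPA rats and 5.78 to 6.37 in vehicle-treated VPA rats, against 7.63 to 8.46 in the controls.

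The promoters of Neurod6 and Neurod2 are shown because these genes were lower than in the controls in both VPA groups, and because NeuroD factors bind the E-box CAGATG. The sequences are the 250 bases before the annotated start, 5′ to 3′ on the strand of the gene, from RefSeq with the rat build GRCr8, at chr4:86180156-86180405 for Neurod6 and chr10:83824278-83824527 for Neurod2, both on the minus strand. Capitals mark CAGATG, searched on both strands (CATCTG on the other).
Neurod6: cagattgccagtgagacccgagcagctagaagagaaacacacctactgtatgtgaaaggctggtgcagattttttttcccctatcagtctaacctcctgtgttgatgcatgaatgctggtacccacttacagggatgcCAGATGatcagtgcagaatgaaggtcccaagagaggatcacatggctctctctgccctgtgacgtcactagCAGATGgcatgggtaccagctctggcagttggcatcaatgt
Neurod2: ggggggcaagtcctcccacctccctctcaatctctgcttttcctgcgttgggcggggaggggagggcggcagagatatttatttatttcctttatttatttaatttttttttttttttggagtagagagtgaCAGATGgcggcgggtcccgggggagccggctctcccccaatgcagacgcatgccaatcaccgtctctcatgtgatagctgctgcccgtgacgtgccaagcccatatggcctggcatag
The Neurod6 promoter held CAGATG at 2 places, beginning 112 and 41 bases before the start, and the Neurod2 promoter at 1 place, 118 bases before the start. Of 33469 rat promoters of the same length, 14.0% held this motif on either strand. The Neurod6 promoter also held the palindrome TGACGTCA, a cyclic AMP response element, which 1.59% of promoters held. Promoters of Neurod1, Wfs1 and Fibcd1 were matched too and held no CAGATG, while Prox1, Bcl11b and Zbtb20 were not matched. A match is a description of the letters, since binding was not measured.

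**Figure D1:**
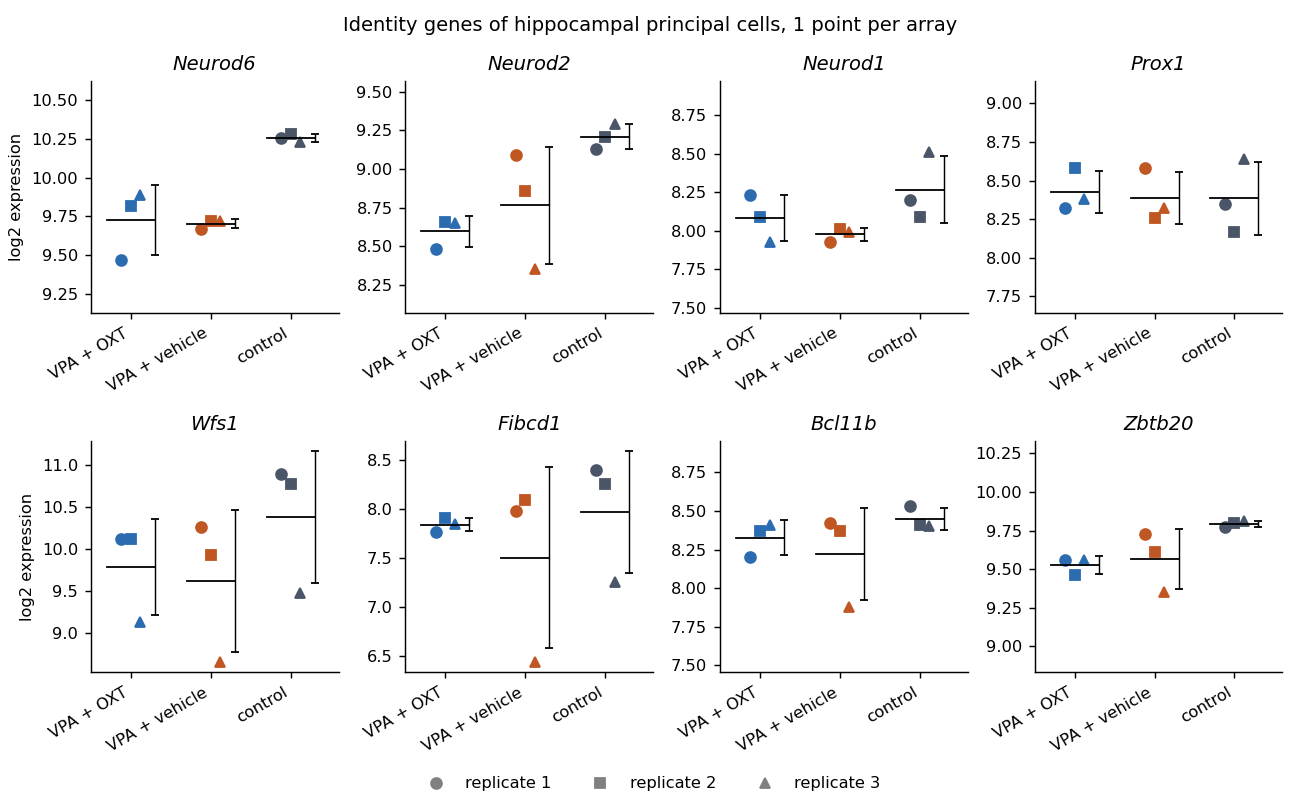
Log2 expression (vertical axis, own range per panel, not starting at 0) of each member in the OXT-treated VPA, vehicle-treated VPA and control groups. Points are arrays, with a circle, square and triangle for replicates 1, 2 and 3, the long line is the mean and the bar is the SD (n = 3). The control arrays of Neurod6 sit between 10.23 and 10.28, above all 6 VPA arrays, and the third array is the lowest of each group for Wfs1.

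Neurod6 fell in both VPA groups, and the controls were tightly grouped. Its log2 expression (probe set 17791554) was 9.47, 9.82 and 9.89 in OXT-treated VPA rats and 9.67, 9.72 and 9.72 in vehicle-treated VPA rats, against 10.26, 10.28 and 10.23 in control rats. All 6 VPA arrays were below all 3 control arrays, and the VPA groups overlapped each other. The mean was 9.70 ± 0.029 in vehicle-treated VPA rats and 10.26 ± 0.025 in control rats (SD, n = 3 each), a log2 difference of -0.55 (SE 0.11), or 1.47-fold lower. The 95% interval of this difference by limma, -0.80 to -0.30, did not include 0 (adjusted p = 0.163). The OXT-treated VPA group had a mean of 9.73 ± 0.23 (SD, n = 3) and differed from the controls by -0.53 on the log2 scale (SE 0.11, 95% interval -0.78 to -0.28, limma adjusted p = 0.185). In each of the 3 VPA comparisons with the controls the unadjusted p stayed under 0.05 in every alternative run. The adjusted p depended on which probe sets entered, and with only those over the level it was under 0.05 (adjusted p = 0.0469 for OXT-treated VPA and adjusted p = 0.0424 for vehicle-treated VPA). Leaving out replicate 1 of the OXT-treated VPA group, the lowest array, took the OXT difference to -0.40. RNA of whole tissue was measured, so fewer cells of a type and less RNA per cell cannot be told apart.

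Neurod2 was lower as well, with more spread in the vehicle-treated VPA group. In OXT-treated VPA rats its log2 expression (probe set 17660780) was 8.48, 8.66 and 8.65, and it was 9.09, 8.86 and 8.35 in vehicle-treated VPA rats, against 9.13, 9.21 and 9.29 in control rats. Both VPA groups lay below the controls without overlap, although the highest vehicle-treated VPA array was only just below the lowest control. Neurod2 fell in the OXT-treated VPA group, with a mean of 8.60 ± 0.10 against 9.21 ± 0.08 in the controls (SD, n = 3 each), a log2 difference of -0.61 (SE 0.17) or 1.53-fold lower (95% interval -1.0 to -0.23, limma adjusted p = 0.394). It also fell in the vehicle-treated VPA group, whose mean was 8.77 ± 0.38 (SD, n = 3), by 0.44 on the log2 scale (SE 0.17, 95% interval -0.83 to -0.059, limma adjusted p = 0.488). Without replicate 3 of the vehicle-treated VPA group this difference was -0.24 and no longer passed, and the call was also lost without control replicate 2 (-0.44) or control replicate 3 (-0.40).

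Neurod1, the NeuroD factor of granule cell formation, passed the test in the vehicle-treated VPA group and not in the OXT-treated VPA group. Its log2 expression (probe set 17773843) was 8.23, 8.09 and 7.93 in OXT-treated VPA rats and 7.93, 8.01 and 7.99 in vehicle-treated VPA rats, against 8.20, 8.09 and 8.51 in control rats. The vehicle-treated VPA arrays lay below all controls, and the OXT-treated VPA arrays overlapped them. The mean was 7.98 ± 0.042 in vehicle-treated VPA rats and 8.27 ± 0.22 in control rats (SD, n = 3 each), a log2 difference of -0.29 (SE 0.12, 95% interval -0.57 to -0.011, limma adjusted p = 0.536). The OXT-treated VPA group had a mean of 8.08 ± 0.15 (SD, n = 3) and a log2 difference from the controls of -0.18 (95% interval -0.46 to 0.096). The interval of the direct difference between the OXT-treated and the vehicle-treated VPA group, from -0.17 to 0.39, includes 0. The call in the vehicle-treated VPA group passed in 7 of 17 alternatives and was lost without control replicate 1 or 3, OXT-treated VPA replicate 2, or any 1 of the vehicle-treated VPA arrays, with the difference at -0.17 without control replicate 3 and between -0.32 and -0.27 in the other cases.

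Prox1, the granule cell factor, did not pass the test in any comparison. The log2 expression of Prox1 (probe set 17687572) was 8.32, 8.58 and 8.38 in OXT-treated VPA rats and 8.58, 8.26 and 8.32 in vehicle-treated VPA rats, against 8.35, 8.17 and 8.64 in control rats. The 3 groups overlapped throughout. The mean was 8.39 ± 0.17 in vehicle-treated VPA rats and 8.39 ± 0.24 in control rats (SD, n = 3 each), and the 95% interval of the log2 difference ran from -0.32 to 0.32. For the OXT-treated VPA group, with a mean of 8.43 ± 0.14 (SD, n = 3), the interval of its log2 difference from the controls was -0.28 to 0.36. Differences of Prox1 that lie within these intervals are not excluded by the 3 arrays per group.

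Zbtb20, the CA1 field factor, was lower by a small amount and with tight controls. Its log2 expression (probe set 17669028) was 9.56, 9.46 and 9.56 in OXT-treated VPA rats and 9.73, 9.61 and 9.35 in vehicle-treated VPA rats, against 9.77, 9.80 and 9.81 in control rats. No VPA array reached the lowest control. Zbtb20 fell in the OXT-treated VPA group, with a mean of 9.53 ± 0.058 against 9.79 ± 0.021 in the controls (SD, n = 3 each), a log2 difference of -0.27 (SE 0.10, 95% interval -0.50 to -0.034, limma adjusted p = 0.593). This call was lost without any 1 of the control arrays (differences of -0.28, -0.26 and -0.26 without replicates 1, 2 and 3) and without OXT-treated VPA replicate 2 (-0.23). The vehicle-treated VPA group, with a mean of 9.56 ± 0.19 (SD, n = 3), had a log2 difference of -0.23 that did not pass (95% interval -0.46 to 0.0028, limma adjusted p = 0.559) but did so without vehicle-treated VPA replicate 1 (difference -0.31), and was -0.12 and did not pass without vehicle-treated VPA replicate 3.

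Bcl11b, the other zinc finger factor, did not pass the test. Log2 values of Bcl11b (probe set 17824248) were 8.20, 8.37 and 8.41 in OXT-treated VPA rats and 8.42, 8.37 and 7.88 in vehicle-treated VPA rats, against 8.53, 8.41 and 8.40 in control rats. The groups overlapped, and the third vehicle-treated VPA array was the lowest of all 9. The mean was 8.22 ± 0.30 in vehicle-treated VPA rats and 8.45 ± 0.072 in control rats (SD, n = 3 each), and the 95% interval of the log2 difference was -0.55 to 0.10. In the OXT-treated VPA group, with a mean of 8.33 ± 0.11 (SD, n = 3), it was -0.45 to 0.21. Without vehicle-treated VPA replicate 3 the vehicle-treated VPA difference was -0.052.

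The CA1 markers Wfs1 and Fibcd1 had a larger SD, pooled within groups, than the 6 transcription factors, although Fibcd1 varied little in the OXT-treated VPA group. The log2 expression of Wfs1 (probe set 17690533) was 10.12, 10.12 and 9.13 in OXT-treated VPA rats and 10.26, 9.93 and 8.66 in vehicle-treated VPA rats, against 10.89, 10.78 and 9.48 in control rats. In every group the third array was far below the other 2, and the labels show no link between arrays of different groups other than this number. The mean was 9.62 ± 0.84 in vehicle-treated VPA rats and 10.38 ± 0.78 in control rats (SD, n = 3 each), a log2 difference of -0.77 (95% interval -1.92 to 0.39, limma adjusted p = 0.68). The OXT-treated VPA group had a mean of 9.79 ± 0.57 (SD, n = 3), a log2 difference from the controls of -0.59 (95% interval -1.75 to 0.56). Without control replicate 3 the vehicle-treated VPA difference was -1.22 and passed (limma adjusted p = 0.641), whereas without vehicle-treated VPA replicate 3 it was -0.29 and did not pass. The OXT-treated VPA difference ran between -1.04 without control replicate 3 and -0.26 without OXT-treated VPA replicate 3, and passed in neither case.

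Fibcd1 had a similar pattern in 2 of the groups. Its log2 expression (probe set 17771225) was 7.77, 7.91 and 7.85 in OXT-treated VPA rats and 7.98, 8.10 and 6.44 in vehicle-treated VPA rats, against 8.40, 8.26 and 7.26 in control rats. The third array was well below the others in the vehicle-treated VPA and control groups, and lay between the others in the OXT-treated VPA group. The mean was 7.51 ± 0.93 in vehicle-treated VPA rats and 7.97 ± 0.62 in control rats (SD, n = 3 each), and the 95% interval of the log2 difference was -1.47 to 0.54. In the OXT-treated VPA group, with a mean of 7.84 ± 0.07 (SD, n = 3), the interval was -1.13 to 0.87. Without vehicle-treated VPA replicate 3 the vehicle-treated difference of Fibcd1 was 0.067, and the OXT-treated difference was 0.083 without control replicate 1 and 0.013 without control replicate 2, none of which passed. Pooled within groups, the SD was 0.743 for Wfs1 and 0.645 for Fibcd1, which are at the 99.6 and 99.3 percentiles of the probe sets over the level of 6.6. For the 6 transcription factors it ran between 0.118 for Zbtb20 and 0.231 for Neurod2.

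Counted together, 3 of 8 members fell in the vehicle-treated VPA group against the controls (Neurod6, Neurod2 and Neurod1), 0 rose and 5 did not pass. Of all probe sets 3.98% fell by this rule, and of those over the level of 6.6, 6.94% fell. With a 1.5-fold difference required as well, 0 members passed, beside 1.71% of all probe sets. The arrays of 4 members did not overlap and were lower in the vehicle-treated VPA group, against 6.92% of all probe sets. The difference was negative for 7 of 8 members, with a median of -0.37 on the log2 scale, beside 0.0067 over all probe sets and -0.03 over those above the level. In the OXT-treated VPA group 3 of 8 members fell against the controls (Neurod6, Neurod2 and Zbtb20), beside 3.51% of all probe sets and 5.79% of those over the level, and 1 (Neurod2) also differed by 1.5-fold, beside 1.4%. These were also the 3 members whose arrays were lower without overlap, beside 5.87% of all probe sets, and the median difference was -0.23, beside 0.0067 over all probe sets. These comparisons share the control arrays and are not independent of each other. The members were chosen with earlier results of these data known. Counts of members beside the shares of all probe sets, here and below, are therefore descriptions only.

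**Figure D2:**
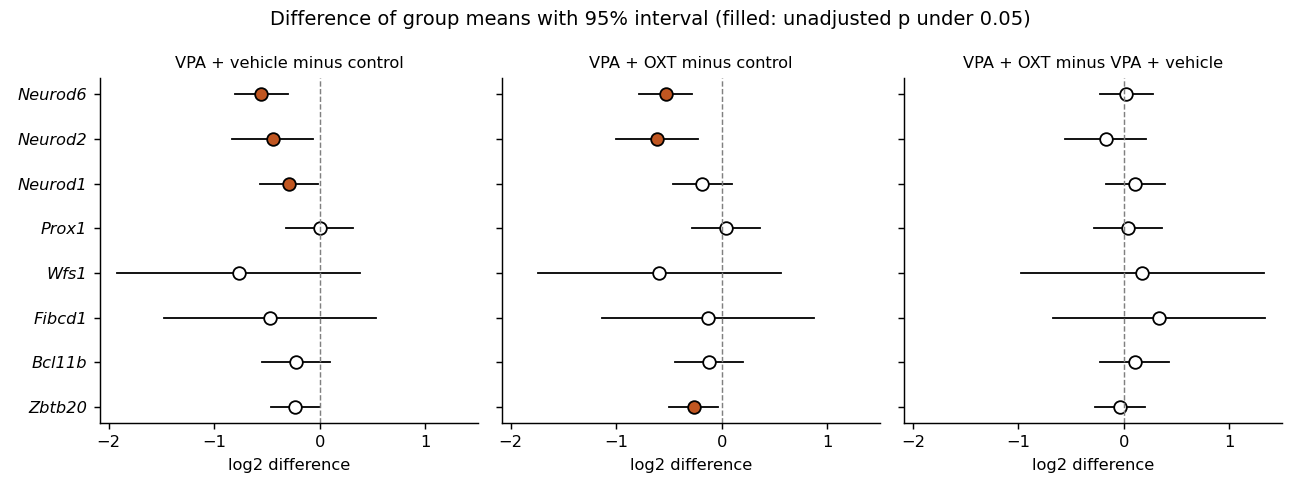
Log2 difference of group means (horizontal axis) for each member, with its 95% interval from limma, in 3 comparisons of 3 arrays against 3. Filled points have an unadjusted p under 0.05, and the points of Neurod6 and Neurod2 lie left of 0 with their intervals in both comparisons with the controls, while every interval of OXT-treated against vehicle-treated VPA includes 0.

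Between OXT-treated and vehicle-treated VPA rats, which addresses whether OXT changed these genes after VPA, 0 of 8 members passed the test, beside 4.66% of all probe sets in either direction. All 8 overlapped, while 6.33% of all probe sets did not, with an adjusted p of 1 by limma. The log2 difference was 0.023 for Neurod6 (95% interval -0.23 to 0.27), -0.17 for Neurod2 (-0.55 to 0.21), -0.037 for Zbtb20 (-0.27 to 0.20) and 0.10 for Bcl11b (-0.22 to 0.43). The intervals were wide for Wfs1, at -0.98 to 1.33, and Fibcd1, at -0.67 to 1.34. Without replicate 3 of the vehicle-treated VPA group, Neurod2 was lower in the OXT-treated VPA group by a log2 difference of -0.38 and passed the unadjusted test.

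With both VPA groups as 1 against the controls, 3 of 8 members fell, beside 4.34% of all probe sets and 7.84% of those over the level. With 1.5-fold required as well 0 members passed, beside 1.21% of all probe sets, and at an adjusted p under 0.05 0 members passed, beside 2 probe sets (0.00657%). With only the probe sets over the level in the fit, Neurod6 had an adjusted p = 0.0166 in this comparison. Neurod6 fell by 0.54 on the log2 scale (SE 0.095), or 1.46-fold (95% interval -0.76 to -0.33, limma adjusted p = 0.0815). Neurod2 fell by 0.53 (SE 0.15, limma adjusted p = 0.279) and Zbtb20 by 0.25 (SE 0.089, limma adjusted p = 0.422). The arrays of these 3 members were lower without overlap, beside 3.17% of all probe sets. The Zbtb20 call was lost without control replicate 2 (-0.25) or 3 (-0.24), and Wfs1 passed without control replicate 3 (log2 difference -1.13). Over the 3 groups the moderated F had an unadjusted p under 0.05 for 2 of 8 members, Neurod6 (adjusted p = 0.199) and Neurod2 (adjusted p = 0.523), beside 7.54% of all probe sets. The study's criteria for a differentially expressed gene combine this F with a 1.5-fold difference between the vehicle-treated VPA group and the controls and the level of 6.6, and 0 members met them, beside 0.654% of all probe sets.

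The members differed in which arrays they followed. Within groups, as deviations from the group mean over 9 arrays, Neurod2 correlated at 0.89 with Bcl11b and at 0.88 with Zbtb20, and Wfs1 at 0.86 with Fibcd1. Neurod6 correlated at only 0.14 with Neurod2 and at -0.58 with Neurod1 by the same measure. Neurod2 and Zbtb20 each spread most in the vehicle-treated VPA group, where both were highest in replicate 1 and lowest in replicate 3. These coefficients are descriptions of 9 arrays that share litters.

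**Figure D3:**
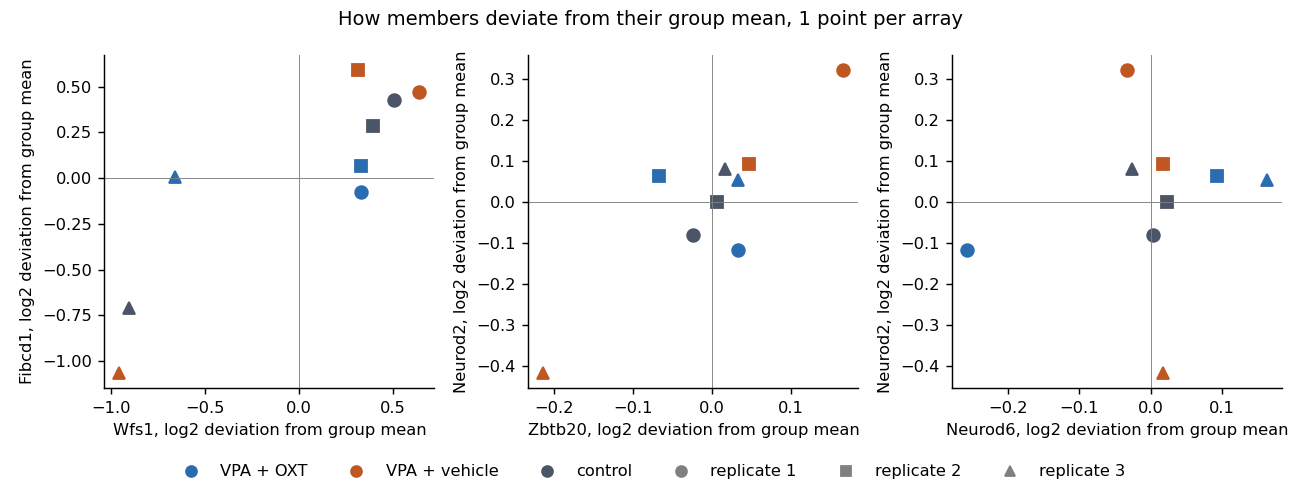
Deviation of each array from its group mean in log2 units, for Fibcd1 against Wfs1 (left), Neurod2 against Zbtb20 (middle) and Neurod2 against Neurod6 (right). Colors are the 3 groups and shapes the replicate numbers, and the vehicle-treated VPA array of replicate 3 lies at the lower left of the left and middle panels but not of the right panel.

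Among 8332 other genes with a mean over the level of 6.6, those most alike by Pearson's r of the log2 values over 9 arrays were Baiap2 (0.968) and Nt5dc3 (0.965) for Neurod6, and Nt5e (0.975) and Rerg (0.968) for Neurod2. Vps8 (0.976) and Slc35a4 (0.954) were most alike to Neurod1, and Tmem108 (0.913) and Osbpl11 (0.875) to Prox1. For Zbtb20 they were Ddit4 (0.977) and Zswim5 (0.973), and for Bcl11b Abcb9 (0.980) and Ppfia4 (0.978). Wfs1 was most like Wnt2 (0.943) and Ncln (0.935), and Fibcd1 most like Ptpru (0.981) and Htr1b (0.961). Coefficients of this height are the extremes of a search of many genes over few arrays, and Prox1 had the lowest best match of the 8.

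Other genes of the same neurons were read from marker lists. As background to the list counts, 3.98% of all probe sets and 6.94% of those over the level fell in the vehicle-treated VPA group. In either direction, 2732 of 30429 probe sets passed in this comparison. In the OXT-treated VPA group 3.51% of all probe sets and 5.79% of those over the level fell, and 2246 of 30429 passed in either direction. The smallest counts on the lists are near these shares and are descriptions only. Of 15 measured genes of forebrain excitatory neurons, 6 fell in the vehicle-treated VPA group against the controls, 0 rose and 9 did not pass, with a median log2 difference of -0.27. They were Slc17a7, the vesicular glutamate transporter of these neurons (-0.34), Nrgn, the calmodulin-binding neurogranin (-0.34), Chn1, the Rac regulator chimaerin (-0.25), the homeodomain factor Lhx2 (-0.42), the pentraxin Nptx1 (-0.39) and the zinc finger factor Zeb2 (-0.48). The smallest p was that of Nptx1 (limma adjusted p = 0.215). In the OXT-treated VPA group 5 of 15 fell and 0 rose, with a median of -0.22. The mean of this list was 8.67, 8.79 and 9.07 in OXT-treated VPA arrays and 8.80, 8.91 and 8.92 in vehicle-treated VPA arrays, against 9.10, 9.13 and 9.07 in controls.

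Pyramidal cell markers were read by field. Of 14 measured CA2 and CA3 markers, 5 fell in the vehicle-treated VPA group and 0 rose, with a median log2 difference of -0.24, and in the OXT-treated VPA group 4 fell and 0 rose. Rgs14, a regulator of G protein signaling and classic CA2 marker, had log2 values of 7.10, 7.41 and 7.36 in OXT-treated VPA rats and 7.32, 7.36 and 6.80 in vehicle-treated VPA rats, against 7.67, 7.92 and 8.39 in controls. The calcium-binding Cpne4 had values of 8.25, 8.28 and 7.99 in OXT-treated VPA rats and 8.18, 8.07 and 8.22 in vehicle-treated VPA rats, against 8.72, 8.74 and 9.12 in controls. Neither gene overlapped between VPA and control arrays. Against the controls, the vehicle-treated VPA group fell by 0.83 for Rgs14 (limma adjusted p = 0.269), by 0.70 for Cpne4 (adjusted p = 0.134) and by 0.57 for Grik4, a kainate receptor subunit of CA3. The CA2 markers Pcp4 and Amigo2 did not pass. Pcp4, a calmodulin regulator, was 10.47, 10.27 and 9.90 in OXT-treated VPA rats and 10.32, 9.93 and 9.57 in vehicle-treated VPA rats, against 9.75, 9.68 and 9.95 in controls, and Amigo2, an adhesion protein, differed from the controls by 0.13 in OXT-treated and by -0.22 in vehicle-treated VPA rats. Of 6 measured CA1 markers other than the members, 0 passed in either VPA group, and the median difference was 0.025 in OXT-treated VPA rats and 0.073 in vehicle-treated VPA rats. Control replicate 3 stood apart in both lists. The mean of the CA1 list was 7.35, 7.27 and 6.81 in the controls, lowest in this array. The mean of the CA2 and CA3 list was 7.48, 7.55 and 7.81, highest in the same array. The weight of this array in the medians was not tested.

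Granule cell markers were mixed. Of 8 measured, 2 rose and 1 fell in the vehicle-treated VPA group, with a median log2 difference of 0.035. Calb1, the calcium buffer calbindin, which CA1 neurons and other regions also contain, was 8.88, 9.24 and 9.44 in OXT-treated VPA rats and 8.91, 9.07 and 9.45 in vehicle-treated VPA rats, against 8.41, 8.25 and 8.33 in controls. All 6 VPA arrays were above the controls, with a log2 difference of 0.81 in the vehicle-treated VPA group (limma adjusted p = 0.188). Pdzd2 rose by 0.21 and Il16 fell by 0.47 in the same comparison. Of 12 genes of immature granule neurons and proliferation, 1 (Calb2, also on the list of thalamus markers) rose and 0 fell.

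**Figure D4:**
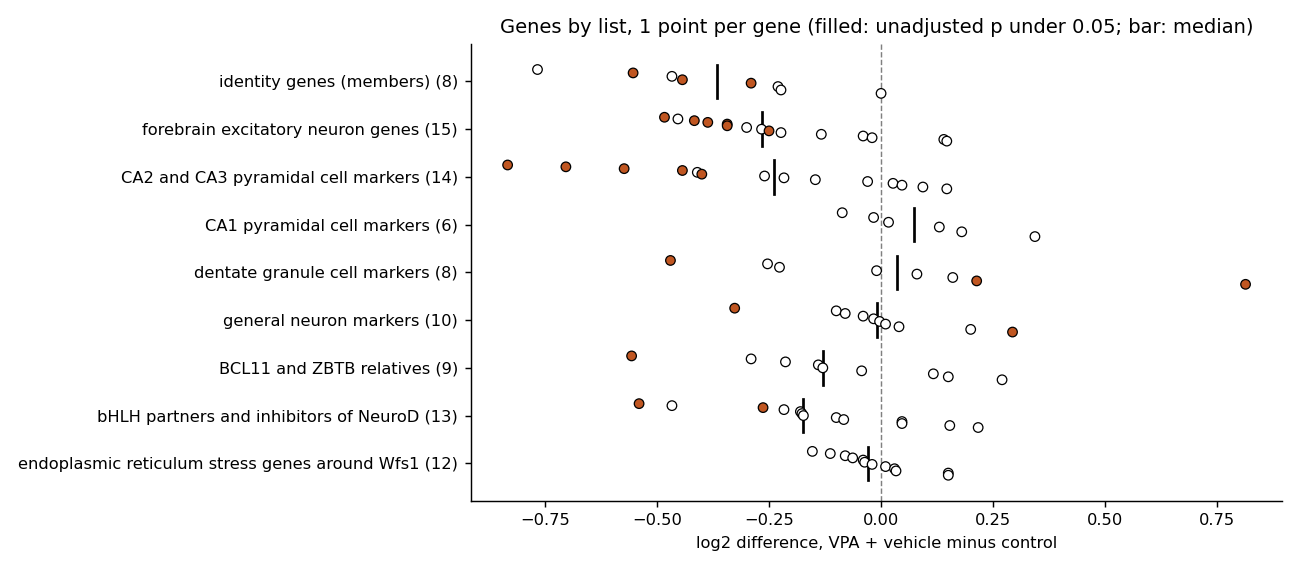
Log2 difference of the vehicle-treated VPA group minus control (horizontal axis) for the genes of each list, 1 point per measured gene, with the number measured in brackets. Filled points have an unadjusted p under 0.05 by limma and bars are medians, which lie at -0.37 for the members, -0.27 for excitatory neuron genes and -0.24 for CA2 and CA3 markers, and at 0.073 for CA1 markers.

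Partners and relatives of the members were read in the same way. Of 13 measured helix-loop-helix partners and inhibitors of NeuroD factors, 2 fell in the vehicle-treated VPA group, the repressor Hes1 (-0.26) and Olig2 (-0.54), a factor of the oligodendrocyte lineage, with a median log2 difference of -0.17. The E protein gene Tcf4 had a difference of -0.18 that did not pass (95% interval -0.39 to 0.030). Of 9 relatives of Bcl11b and Zbtb20, 1 fell, the repressor Zbtb18 (-0.56, limma adjusted p = 0.208), and Bcl11a had a difference of -0.29 that did not pass. Of 12 endoplasmic reticulum stress genes that act around Wfs1, 0 passed in either VPA group, with a median of -0.028 in the vehicle-treated VPA group. In none of these lists of principal cell genes, partners and relatives did a gene pass between OXT-treated and vehicle-treated VPA rats.

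General neuron markers and neighboring tissue give the setting of the Neurod6 values. Of 10 general neuron markers, Nefm rose (0.29) and Rbfox3 fell (-0.33) in the vehicle-treated VPA group, and the list mean was 10.90 to 10.97 in OXT-treated VPA rats and 10.85 to 11.02 in vehicle-treated VPA rats, against 10.90 to 10.98 in the controls. Of the 15 thalamus markers 5 rose and 1 fell in the vehicle-treated VPA group. Tcf7l2, a factor of the thalamus, was 9.02, 8.84 and 6.23 in OXT-treated VPA rats and 8.83, 8.52 and 6.30 in vehicle-treated VPA rats, against 7.07, 6.72 and 6.90 in controls. In the third array of each VPA group Tcf7l2 was below all controls. Neurod6 in these arrays was 9.89 (OXT-treated) and 9.72 (vehicle-treated), also below its controls. Slc17a6, the glutamate transporter of the thalamus, stayed above the controls in these arrays, at 7.71 (OXT-treated) and 7.67 (vehicle-treated), against 6.77, 6.09 and 6.10 in controls. So did Ntng1, at 8.06 (OXT-treated) and 8.27 (vehicle-treated), against 7.83, 7.56 and 7.60 in controls. Calb2 did as well, at 7.60 (OXT-treated) and 7.22 (vehicle-treated), against 6.65, 6.12 and 6.64 in controls. The markers of this list therefore went both ways in these arrays. Of 10 ventral hippocampus markers 6 rose and 0 fell in each VPA group, with Nr2f2 higher by a log2 difference of 1.18 in the vehicle-treated VPA group, and no VPA array overlapped the controls in the list mean. Of 7 oligodendrocyte markers 2 fell in each VPA group, among them Opalin (-1.02 in the vehicle-treated VPA group), and of 10 interneuron markers 2 rose in the vehicle-treated VPA group (Gad1 and Reln). Of 14 choroid plexus markers 11 fell with VPA and vehicle against the controls, and 0 passed with VPA and OXT. The OXT-treated VPA arrays were split, with a mean of this list of 8.84, 7.76 and 6.0. The third of them lay within the vehicle-treated VPA range of 5.78 to 6.37. Of 6 endothelium markers 3 rose, of 7 astrocyte markers 1 fell, of 10 markers of neocortical layers and subiculum 2 fell, and of 8 microglia markers 0 passed in the vehicle-treated VPA group. The part of these shifts in the differences of the members was not tested. As background to both directions, 2246 of 30429 probe sets passed for OXT-treated VPA against the controls, and 2732 for vehicle-treated VPA. The lists were chosen with earlier results of these data known, so their counts are descriptions only.

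**Figure D5:**
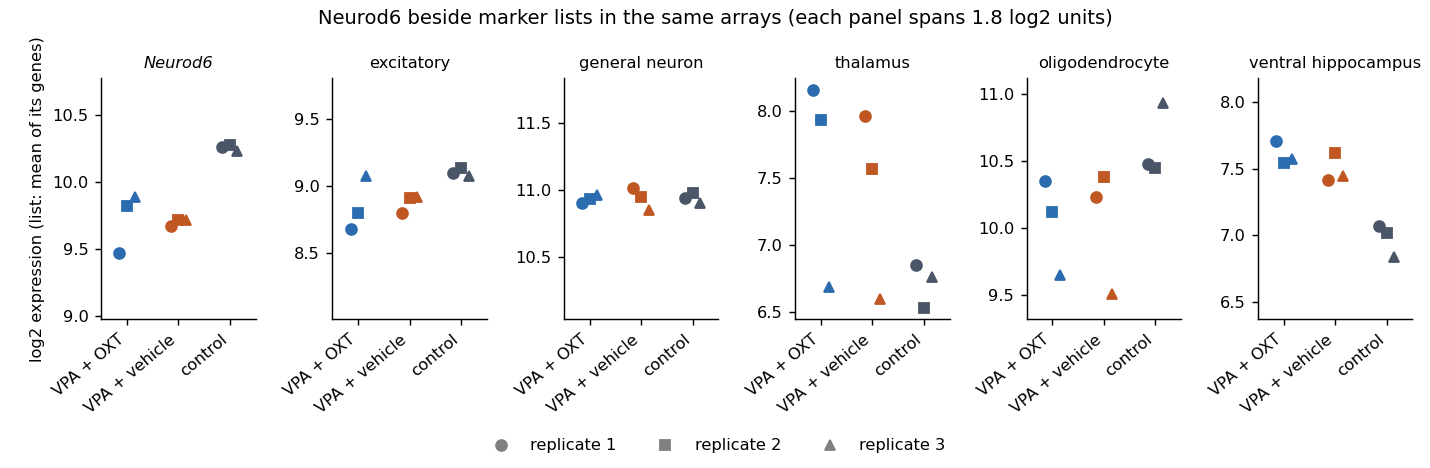
Log2 expression of Neurod6 and mean log2 of 5 marker lists (vertical axes, each spanning the same number of log2 units and not starting at 0) in the OXT-treated VPA, vehicle-treated VPA and control arrays. Shapes are replicate numbers. The third array of each VPA group sits at the control level for the thalamus list, at 6.69 and 6.6, and its Neurod6 value is below the controls. A link between them was not tested.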

How the data were processed

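RNA of the dorsal hippocampus was measured in 9 rats on Rat Gene 2.0 ST arrays. The log2 values were used as deposited by the authors, rounded to 2 decimals. The methods name Transcriptome Analysis Console (version 4.0) for the analysis of the profiles and the submitters' processing notes name Affymetrix Expression Console. Which of them made the deposited values, the normalization and summarization method and the genome build are not given in the sources used here. VPA was given to the dam on gestation day 12.5. Of 30429 probe sets, 18511 carry 1 gene symbol, 575 several and 11343 none.

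A model of the 3 groups was fitted over all probe sets with limma (version 3.58.1, R version 4.3.3, prior degrees of freedom 2.72), and the Benjamini-Hochberg adjustment was made across all of them. No depth applies to arrays, and the number of arrays limits the precision. Replicates are separate rats, but litters are not known. The procedure was tested on simulated data. The text names all 8 members, up to 3 genes per list with the smallest p in vehicle-treated VPA against control, classic markers, and the 2 genes most like each member. Some list genes named (Slc17a7, Nrgn, Chn1, Tcf4, Tcf7l2, Pcp4, Amigo2) were added after their values were seen, to complete a count or show a partner or marker. Of 197 genes on 18 lists, 182 were measured. Members and lists were chosen with earlier results of these data known. The alternatives were array weights, median centring, quantile normalization, other moderation, filters on probe sets, fits of the compared groups only, stricter thresholds, a replicate block and leaving out each array.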

Additional observations from a re-analysis of the deposited data

How the results depend on the processing

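Neurod6 passed an unadjusted p under 0.05 against the controls in all 17 alternatives for each VPA group and all 16 for both together. Neurod2 did so in 17 of 17 (OXT-treated VPA), 13 of 17 (vehicle-treated VPA) and 16 of 16 (both). Of the 3 members that fell in the vehicle-treated VPA group, 1 passed with only the groups compared, 0 at an adjusted p under 0.05 and 0 with a 1.5-fold difference required. Of the 3 in the OXT-treated VPA group, 0 passed at an adjusted p and 1 with 1.5-fold. Of the 3 for both VPA groups, 0 passed at either, and of the 2 by the F, 0 at an adjusted p. These counts at an adjusted p hold with all probe sets in the fit. The filter on the level used the group means and was not blind to the groups. With only probe sets over the level in the fit, Neurod6 passed at an adjusted p under 0.05 in each comparison with the controls (adjusted p = 0.0469 for OXT-treated VPA, adjusted p = 0.0424 for vehicle-treated VPA and adjusted p = 0.0166 for both), and for both groups also with array weights (adjusted p = 0.0336) and with trend and robust moderation (adjusted p = 0.0284). Over the whole table, the number at an adjusted p under 0.05 was 0 for OXT-treated VPA, 0 for vehicle-treated VPA and 2 for both against the controls, but 163, 140 and 252 with only probe sets over the level, 107, 80 and 167 with trend and robust moderation, and 34, 2 and 288 with array weights. Between OXT-treated and vehicle-treated VPA it was 0 under each of these. Without 1 array the counts of members ran between 1 and 3 (vehicle-treated VPA, with 1 without its replicate 3), 2 and 3 (OXT-treated VPA), 0 and 1 (OXT-treated against vehicle-treated), 3 and 4 (both) and 1 and 3 (F).

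Signs changed in differences that did not pass. With array weights, OXT-treated minus vehicle-treated VPA was -0.0088 for Bcl11b and -0.0037 for Fibcd1. Leaving out 1 array at a time, that log2 difference ranged between -0.058 and 0.15 for Neurod6, -0.037 and 0.14 for Prox1, -0.31 and 0.50 for Wfs1, -0.068 and 0.20 for Bcl11b, -0.14 and 0.047 for Zbtb20, and -0.20 and 0.63 for Fibcd1. Against the controls it ranged between -0.82 and 0.067 (vehicle-treated VPA) and -0.49 and 0.083 (OXT-treated VPA) for Fibcd1, and for Prox1 between -0.068 and 0.17 (OXT-treated VPA) and -0.088 and 0.15 (both). The cause was not tested.

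The labels give no pairing beyond the replicate number, and deviations of same-numbered arrays over all probe sets correlated between -0.21 and 0.10. Such a correlation cannot show whether single genes followed the number. Wfs1 was lowest in the third array of each group, and the reason was not tested. With the number as a replicate block, 3 members (vehicle-treated VPA), 4 (OXT-treated VPA), 0 (OXT-treated against vehicle-treated) and 4 (both) passed, and 3 by the F. Wfs1 then passed against the controls with its differences as before (adjusted p = 0.295 for vehicle-treated VPA, adjusted p = 0.33 for OXT-treated VPA and adjusted p = 0.197 for both), and Neurod1 did not pass in the vehicle-treated VPA group (-0.29). Over all probe sets 2539 passed in the vehicle-treated VPA group with the block and 2732 without. A second probe set per gene could not be tried, since each member has 1.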
